A study of Mus musculus with 9 samples.

Results

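Interferon response genes are the genes that cells switch on when they sense viral or misplaced nucleic acid, or when interferon released by another cell reaches them. The data hold 40 such genes among the 55401 genes of the deposited table, and each symbol stood on 1 identifier. They were chosen by symbol with earlier results of these data known, so their counts by direction beside all genes are descriptive only. By role they comprise 8 sensors of nucleic acid, 4 transcription factors, 20 effectors and 8 GTPases. Their levels were measured in 9 libraries of spinal cord motoneurons from wild-type mice, taken 4 weeks after spinal cord injury in the injured groups. A group of 3 libraries, here called SBES, came from injured mice that received synergistic bidirectional electrical stimulation, at 10, 15 and 20 Hz in replicates 1, 2 and 3. The untrained group had 3 libraries from mice with the injury and no stimulation, and the sham group had 3 libraries with the treatment given as none. The neurons were picked from cord slices through glass electrodes by the fluorescence of a dye given as TRDA. Smart-seq2, which copies whole transcripts from little RNA, was used to make the libraries. Each frequency has 1 library, so a difference among SBES libraries cannot be told apart from a difference of frequency. The sample titles carry the term scRNAseq, for single-cell RNA sequencing. No source used here ties a library to a mouse, gives the number of neurons behind it or the mice's age. The tests thus weigh differences against a spread among libraries that may be technical in part. The columns of the 3 untrained libraries and of SBES 1 were matched to their samples by elimination.

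In an interferon response, sensors such as RIG-I and MDA5 recognise foreign RNA and lead to the production of type I interferon. Interferon binds its receptor and activates transcription factors, which bind a promoter sequence called the interferon-stimulated response element (ISRE). Interferon gamma acts through a related sequence, the gamma-activated site (GAS). The genes switched on in this way include antiviral effectors, GTPases that attack pathogen compartments, and more sensors and transcription factors, which amplify the response. In the central nervous system microglia, astrocytes, endothelial cells and neurons can all mount it.

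Promoters are shown first, because many interferon response genes are known to be switched on through a shared promoter element. RefSeq's table for GRCm38.p6 held a promoter for 29 of the 40 genes, in 34 windows. The 250 bases before each annotated start were searched on both strands for the ISRE core, which is GAAA, any 2 bases and GAAA again, and the GAS core, TTCNNNGAA. A gene was counted if any of its windows matched. The ISRE core occurred upstream of 14 of the 29 genes (48.3%), against 936 of 27025 genes in the whole table (3.46%). The GAS core occurred upstream of 7 of them (24.1%), against 8.13% of all genes. Both were found for 4 genes, and 12 held neither. A match is a description of the letters and not of a bound site. The 6 windows below belong to genes whose values are given later. They are the GTPase gene Gbp3 (chr3:142559794-142560043, plus strand), the sensor gene Oas1a (chr5:120907526-120907775, minus strand) and the neighbouring effector genes Ifit3 (chr19:34583279-34583528, plus strand) and Ifit3b (chr19:34607707-34607956, plus strand). The last pair is Ifitm2 (chr7:140955962-140956211, minus strand) and Ifitm3 (chr7:141010745-141010994, minus strand). Both lie within 55.9 kb of chromosome 7, and their values are set against each other below. Capitals mark ISRE and GAS core matches on either strand. Each runs 5′ to 3′ on the strand of its gene.
Gbp3: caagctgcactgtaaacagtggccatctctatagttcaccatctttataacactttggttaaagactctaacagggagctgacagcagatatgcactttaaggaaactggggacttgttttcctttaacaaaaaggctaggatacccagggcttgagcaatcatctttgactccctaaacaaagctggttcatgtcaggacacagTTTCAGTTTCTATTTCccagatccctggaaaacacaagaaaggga
Oas1a: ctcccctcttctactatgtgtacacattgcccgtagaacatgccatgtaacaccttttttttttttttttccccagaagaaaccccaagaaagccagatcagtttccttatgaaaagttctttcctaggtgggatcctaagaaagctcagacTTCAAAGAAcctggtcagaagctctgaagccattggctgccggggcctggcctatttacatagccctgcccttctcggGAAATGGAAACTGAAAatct
Ifit3: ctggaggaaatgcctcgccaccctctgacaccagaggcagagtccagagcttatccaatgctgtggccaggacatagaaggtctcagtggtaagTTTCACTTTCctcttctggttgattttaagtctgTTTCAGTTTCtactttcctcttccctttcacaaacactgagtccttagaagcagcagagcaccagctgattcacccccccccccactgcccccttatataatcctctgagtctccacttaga
Ifit3b: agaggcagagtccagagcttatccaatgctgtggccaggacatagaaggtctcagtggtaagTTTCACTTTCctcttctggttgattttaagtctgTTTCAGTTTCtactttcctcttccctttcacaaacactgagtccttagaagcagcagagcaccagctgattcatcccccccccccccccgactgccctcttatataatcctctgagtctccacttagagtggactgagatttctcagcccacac
Ifitm2: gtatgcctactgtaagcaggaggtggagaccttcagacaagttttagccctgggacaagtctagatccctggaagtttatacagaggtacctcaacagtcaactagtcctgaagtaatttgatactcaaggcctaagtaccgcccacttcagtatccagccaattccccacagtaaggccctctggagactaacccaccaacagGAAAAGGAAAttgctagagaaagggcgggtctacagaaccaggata
Ifitm3: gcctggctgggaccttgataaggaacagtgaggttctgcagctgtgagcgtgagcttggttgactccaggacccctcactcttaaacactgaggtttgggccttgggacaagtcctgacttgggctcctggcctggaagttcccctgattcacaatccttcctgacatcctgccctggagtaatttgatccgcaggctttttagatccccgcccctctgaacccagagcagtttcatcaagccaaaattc

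In the Gbp3 window shown, a pair of overlapping ISRE cores on the minus strand ran from -45 to -30, counted back from the base before the annotated start. The other Gbp3 window (chr3:142560106-142560355) held no match to either core. Oas1a had an overlapping pair of ISRE cores from -20 to -5 and a GAS core from -98 to -90. Ifit3 had ISRE cores at -156 to -147 and -122 to -113. The Ifit3b window repeats that promoter with a shift of its annotated start, its ISRE cores lying at -188 to -179 and -154 to -145, and the longest identical run of the 2 windows was 169 bases. Ifitm2 held 1 ISRE core at -46 to -37. The Ifitm3 window held no match to either core, which says only that these letters are not in this window.

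**Figure D1:**
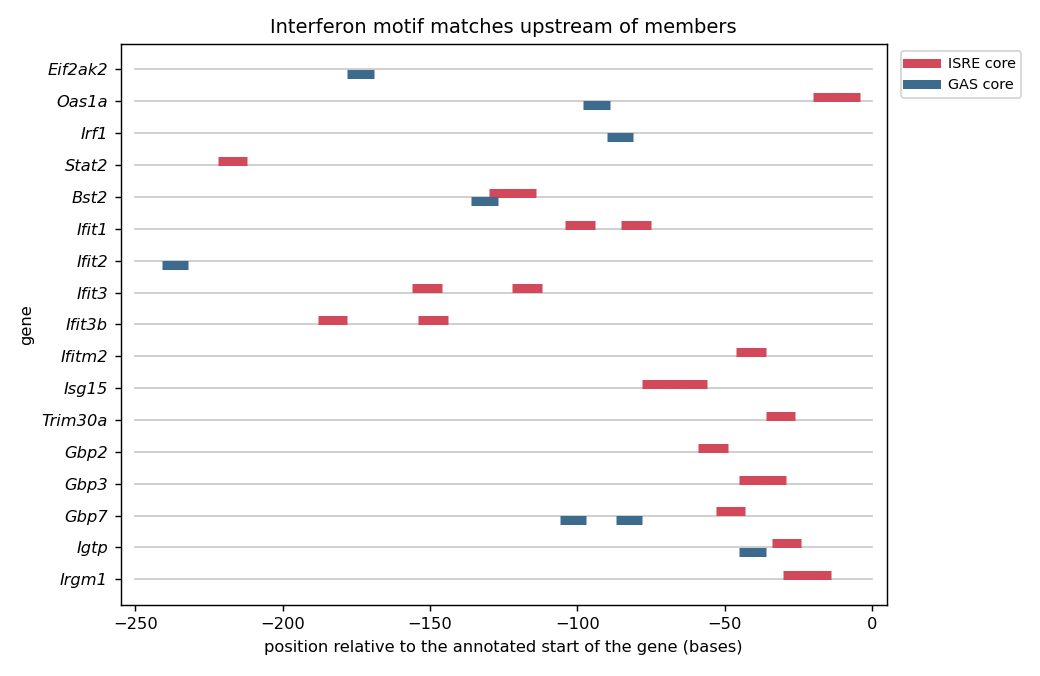
Positions of ISRE core and GAS core matches (either strand) in the 250 bases before the annotated start, for the 17 genes with a match out of 29 with a promoter in the table. ISRE cores of Gbp2, Gbp3, Gbp7, Igtp, Irgm1, Oas1a, Trim30a and Ifitm2 lie within 60 bases of the start, and those of Ifit3 and Ifit3b lie farther upstream.

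The genes differed widely in level. On the per-length scale (FPKM, fragments scaled to transcript length and library size), 6 genes averaged at least 5 over the 9 libraries, 14 between 1 and 5, and 20 under 1. Ifitm3 had the highest mean at 275 FPKM, followed by Ifitm2 at 111 and Ifi27 at 102. Ifitm proteins restrict the entry of viruses at membranes, and Ifi27 encodes a small membrane protein. Those 3 genes held 86.2% of the summed FPKM of all 40. The surface protein tetherin, from Bst2, averaged 15.8 FPKM, the leucine zipper protein gene Ifi35 9.79 and the RNA-binding effector gene Ifit3 9.44. The lowest were Mx1 at 0.0278 FPKM, with 14 counts in all libraries together, and Parp14 and Samd9l at 0.102 and 0.104. All but Mx1 had at least 1 count in every library. The filter on low counts kept 37 genes for testing and removed Mx1, Oas2 and Samd9l.

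Several of the genes are neighbours. The Ifit1, Ifit2, Ifit3 and Ifit3b genes lie within 99.3 kb of chromosome 19 in the mm10 coordinates of the table, Gbp2, Gbp3 and Gbp7 within 108 kb of chromosome 3, and Ifitm2 and Ifitm3 within 55.9 kb of chromosome 7. Near-identical copies make some counts uncertain, since reads that fit more than 1 gene may be dropped or split. Of the 50-base words in annotated transcripts, 57.6% of those of Oas1a also occurred in Oas1g, 51.2% of those of Ifit3 in Ifit3b, and 48.5% of those of Ifitm2 in another gene. Rtp4 shared 11.6% of its words with Gm45338, a gene model on the same strand. Parp9 overlaps Dtx3l on the opposite strand, and the strand setting of the counting is not given in the sources used here.

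**Figure D2:**
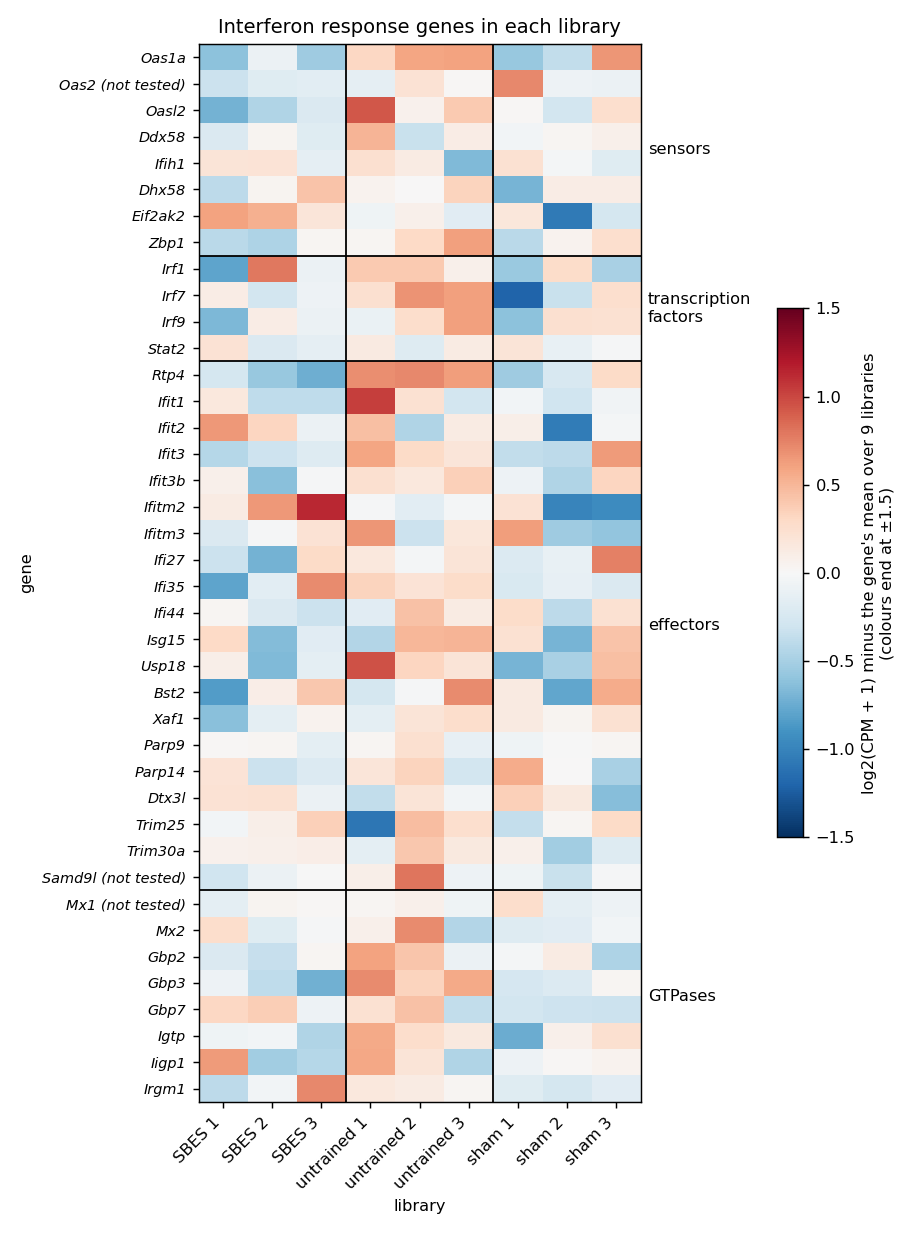
Level of each of the 40 genes (rows, by role) in each library (columns), as log2(CPM + 1) minus the gene's mean over the 9 libraries. Red is above and blue below the gene's own mean, and above-mean values fill most of the 3 untrained columns, where 27, 30 and 26 of the 37 tested genes lay above their own mean.

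Transcripts of neurons and of glia were present in each library. Total counts ran from 11821145 to 17675948. Chat, the enzyme that makes acetylcholine in motor neurons, lay between 19.6 and 34.5 CPM (counts scaled to library size with TMM factors) in every library. The summed level of 10 oligodendrocyte markers ran from 38606 to 109517 CPM, against 234 to 1006 CPM for 8 motor neuron markers and 6996 to 14463 CPM for 12 pan-neuronal markers, with no marker of these lists at 0. Sham 1, untrained 1 and SBES 1 stood apart in the nuclear RNA Malat1, at 20809, 15272 and 6278 CPM, against 465 to 1487 CPM in the others. SBES 1 had 18.6% of its counts on mitochondrially encoded genes, and sham 1 had 7.36%, against 2.47% to 6.27% in the others. In such mixed samples fewer cells of a type and less RNA per cell cannot be told apart.

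Untrained libraries were set against sham libraries to describe the injured cord without stimulation. Fold changes were mostly positive but small against the spread between libraries. Of the 37 genes tested, 33 had a positive log2 fold change, at a median of 0.33, where 49.1% of all 15893 genes tested were positive and 50.9% negative at a median of -0.0069. No gene of the 37 was called by edgeR's quasi-likelihood test at an adjusted p under 0.05 over all genes tested, and the background was 0% of all genes. DESeq2 called 0 of the 37, against 0.0755% of all genes higher and 0.0378% lower. At an unadjusted p under 0.05, 3 were higher and 0 lower, against 2.18% and 2.27% of all genes. Untrained and sham libraries did not overlap for 4 genes, all higher in untrained (Rtp4, Gbp3, Ifi35 and Irgm1), where 4.62% of all genes were higher and 5.13% lower without overlap. All 7 tested GTPase genes were positive (median 0.58), as were all 4 transcription factor genes (median 0.44), 6 of 7 sensor genes (median 0.34) and 16 of 19 effector genes (median 0.31). Leaving out the replicate 1 libraries gave 33 of 37 positive at a median of 0.40.

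Rtp4 encodes a chaperone that helps G protein-coupled receptors reach the cell surface and is induced by interferon. Its levels were 15.6, 15.9 and 14.9 CPM in untrained libraries 1 to 3, against 6.09, 7.73 and 11.6 CPM in sham libraries 1 to 3. The untrained values lay close together and above every sham value. The log2 fold change was 0.86 (SE 0.28, adjusted p = 1, edgeR). Rtp4 (ENSMUSG00000033355) lies on chromosome 16 from 23520291 to 23614222 in mm10.

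Gbp3 encodes a guanylate-binding protein, a GTPase that assembles on the compartments of intracellular pathogens. It stood at 4.36, 3.11 and 3.85 CPM in untrained libraries, against 1.74, 1.84 and 2.34 CPM in sham libraries. The groups did not overlap, and the log2 fold change was 0.92 (SE 0.36, adjusted p = 1, edgeR). Its neighbours Gbp7 (0.62, SE 0.36) and Gbp2 (0.58, SE 0.36) had overlapping groups. For Gbp7, untrained 3 at 1.99 CPM lay below all 3 sham libraries, which stood at 2.18, 2.09 and 2.07 CPM, while untrained 1 and 2 stood at 3.50 and 4.22 CPM. Gbp2 ran from 2.77 to 5.08 CPM in untrained and from 1.91 to 3.36 CPM in sham libraries.

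Irf7 encodes the transcription factor that drives type I interferon genes in an amplifying loop. Its levels were 6.14, 8.67 and 8.25 CPM in untrained libraries, against 1.63, 3.80 and 6.21 CPM in sham libraries. Sham 3 lay just above untrained 1, so the groups overlapped. The log2 fold change was 1.47 without sham 3 and 0.65 without sham 1. With all libraries it was 0.96 (SE 0.40, adjusted p = 1, edgeR). Irf1, which acts at interferon gamma targets, stood at 0.57 (SE 0.44), Irf9 at 0.30 (SE 0.34) and Stat2 at 0.0079 (SE 0.30). The products of Irf9 and Stat2 belong to the complex that binds the ISRE.

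Usp18, a protease that removes the ubiquitin-like protein ISG15 from its targets and dampens receptor signalling, stood at 11.4, 7.0 and 6.32 CPM in untrained libraries, against 2.94, 3.55 and 7.73 CPM in sham libraries. Its log2 fold change was 0.78 (SE 0.41), with sham 3 inside the untrained range. It was 1.33 without sham 3 and 0.51 without untrained 1. Ifit1, which binds RNA lacking host cap marks, stood at 7.79, 4.00 and 2.53 CPM in untrained libraries, against 3.16, 2.47 and 3.10 CPM in sham libraries. Untrained 1 was far above the rest, and the log2 fold change of 0.71 (SE 0.42) was 0.21 without it. Oasl2, of the oligoadenylate synthetase family, stood at 0.57 (SE 0.33). Isg15 itself averaged 1.90 ± 0.962 CPM in untrained and 1.55 ± 0.927 CPM in sham libraries (SD, n = 3 each), a difference within the spread.

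The most abundant members gave overlapping groups in this comparison. Ifitm3 stood at 283, 143 and 202 CPM in untrained and at 277, 124 and 118 CPM in sham libraries, with both replicate 1 libraries highest. Ifi27 stood at 158, 138 and 162 CPM in untrained and at 122, 132 and 240.0 CPM in sham libraries, and Bst2 at 10.8, 12.9 and 21.9 CPM against 14.5, 7.16 and 19.6 CPM. For both genes the sham range was wider than the distance between the group means. Ifi35 was the exception among the abundant members, at 20.1, 18.2 and 19.2 CPM in untrained and 13.3, 14.3 and 13.3 CPM in sham libraries, without overlap (log2 fold change 0.49, SE 0.33, adjusted p = 1, edgeR).

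Markers of other cells differed between these groups too. Of 17 endothelial and pericyte markers 15 were positive (median 0.54), with sums of 1112 to 1480 CPM in untrained and 626 to 1053 CPM in sham libraries. At an unadjusted p under 0.05 in edgeR, 7 of them were higher and 0 lower, against 2.18% and 2.27% of all genes. Without overlap 3 were higher and 0 lower, against 4.62% and 5.13% of all genes. Of 18 microglia markers 14 were positive (median 0.37), with sums of 2134 to 2390 CPM in untrained and 1057 to 2931 CPM in sham libraries. At the same threshold 1 microglia marker was higher and 0 lower, and 3 were higher without overlap. None of these 2 lists was at 0 in any library. Of 8 motor neuron markers 7 were negative (median -0.38), and Calca, a neuropeptide gene, was lower without overlap (-2.39, called by DESeq2 at an adjusted p of 2.03e-05, 0.184 in edgeR). Of 12 pan-neuronal markers 10 were negative (median -0.52), and of 10 oligodendrocyte markers 10 were negative (median -0.55). Leukocyte markers, of which 6 of 14 were tested and 2 were positive, summed to 305 to 810 CPM in untrained and 32.0 to 2511 CPM in sham libraries. Cd3e, Cd8a, Cd4, Ccr2 and Itgal of that list were at 0 in at least 1 library. Their part in the values of the interferon response genes was not tested.

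**Figure D3:**
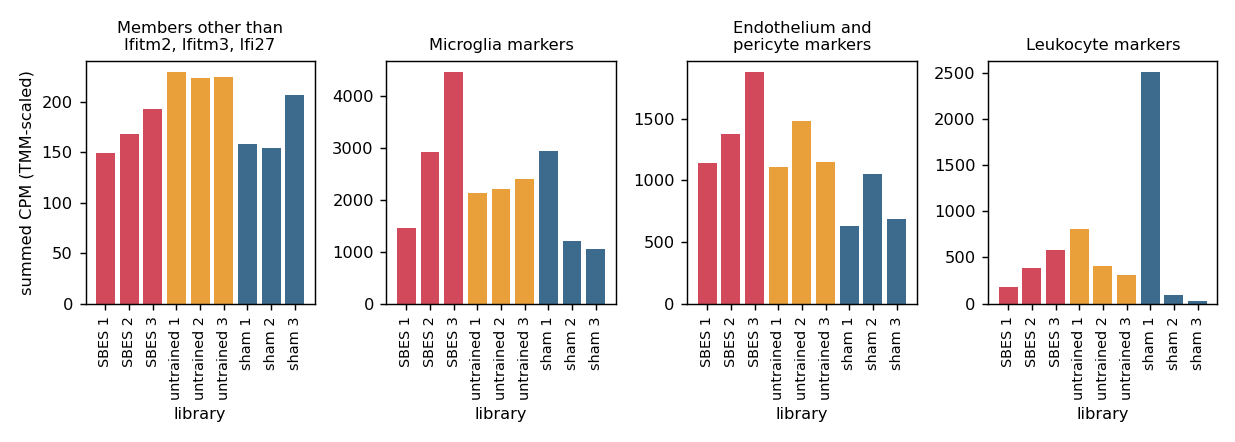
Summed CPM per library of the interferon response genes other than Ifitm2, Ifitm3 and Ifi27, and of microglia, endothelial and pericyte, and leukocyte markers. The interferon sum was 224 to 229 CPM in the untrained libraries, above all SBES (149 to 194 CPM) and sham libraries (154 to 207 CPM), while the microglia sum was highest in SBES 3 and the leukocyte sum in sham 1. With Ifitm2, Ifitm3 and Ifi27 included the groups overlapped, at 488 to 720 CPM in SBES, 565 to 735 CPM in untrained and 442 to 635 CPM in sham libraries.

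SBES libraries were next set against untrained libraries, which differ from them in stimulation and also serve in the comparison above. Most tested members had a lower mean in SBES libraries, while 8 had a higher one, Ifitm2 and Eif2ak2 among them. Of the 37 genes tested, 29 had a negative log2 fold change, at a median of -0.34, where 48.3% of all genes tested were negative and 51.7% positive at a median of 0.015. No member was called by edgeR over all genes tested, and the background was 0%. DESeq2 called 1 of the 37, Rtp4, which was lower, where it called 0.044% of all genes lower and 0.145% higher. At an unadjusted p under 0.05, 6 were lower and 1 higher in edgeR, against 1.67% and 3.7% of all genes. SBES and untrained libraries did not overlap in TMM-scaled CPM for 11 genes. The 9 that were lower in SBES libraries are Rtp4, Gbp3, Oasl2, Oas1a, Ifit3, Usp18, Irf7, Igtp and Ifit3b, and the 2 that were higher are Ifitm2 and Eif2ak2. Of all genes, 4.77% were lower and 5.66% higher without overlap. By role, 15 of 19 effector genes were negative (median -0.30), 5 of 7 sensor genes (median -0.40), 4 of 4 transcription factor genes (median -0.35) and 5 of 7 GTPase genes (median -0.38). Leaving out the replicate 1 libraries gave 11 of 37 positive at a median of -0.31.

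Rtp4 stood at 7.56, 5.95 and 5.19 CPM in SBES libraries 1 to 3, against 15.6, 15.9 and 14.9 CPM in untrained libraries. The untrained values were close together and all SBES values lay well below them, SBES 1 being the nearest. The log2 fold change was -1.32 (SE 0.29, adjusted p = 0.567, edgeR). With DESeq2 the adjusted p was 0.0185, and over the 18 alternatives it ran from 0.0146 to 0.991 while the fold change stayed between -1.51 and -1.20. The call was thus made by DESeq2 and by edgeR with no filter on low counts, and by no other setting.

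**Figure D4:**
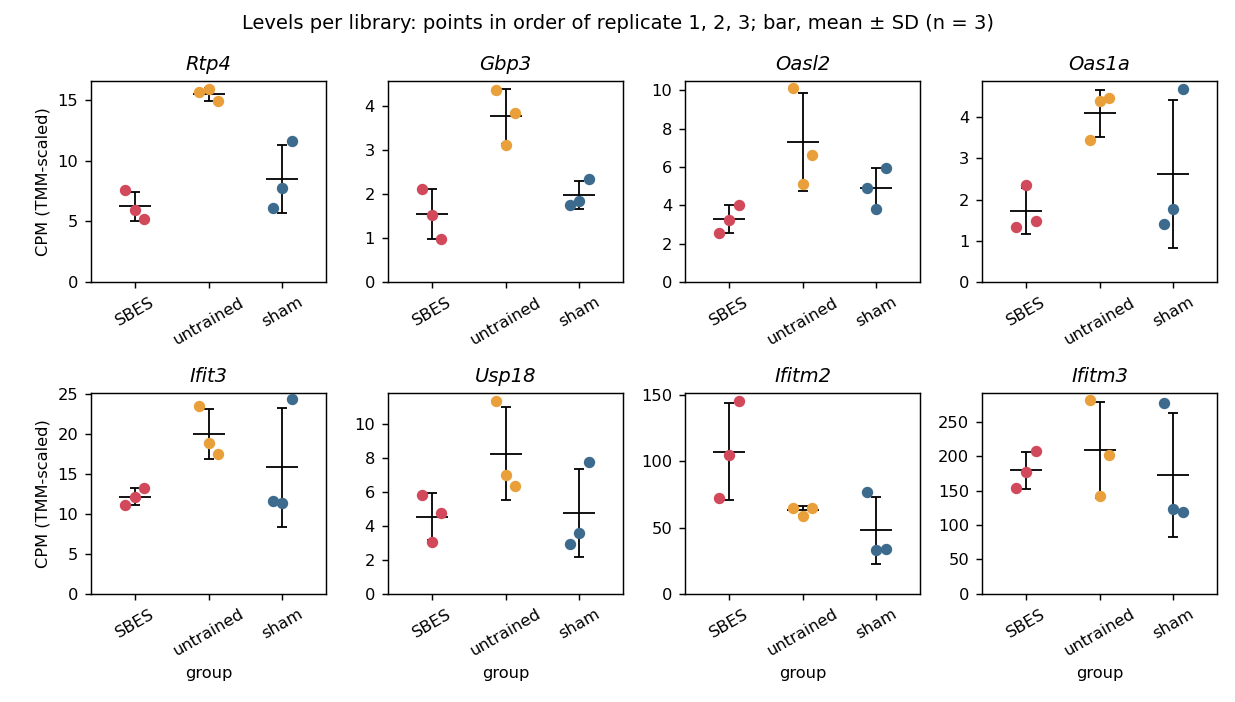
TMM-scaled CPM in each library for 8 interferon response genes (points, in the order of replicates 1 to 3, with mean ± SD, n = 3), each on an axis from 0. Rtp4, Gbp3, Oasl2, Oas1a, Ifit3 and Usp18 lie lower in all 3 SBES libraries than in any untrained library, Ifitm2 lies higher, and the groups overlap for Ifitm3.

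Gbp3 stood at 2.11, 1.52 and 0.988 CPM in SBES libraries, against 4.36, 3.11 and 3.85 CPM in untrained libraries. The groups did not overlap, and the log2 fold change was -1.31 (SE 0.37, adjusted p = 0.749, edgeR). Gbp3 (ENSMUSG00000028268) lies on chromosome 3 from 142560026 to 142573209 in mm10. Its neighbour Gbp7 averaged 3.46 ± 0.703 CPM in SBES and 3.24 ± 1.14 CPM in untrained libraries (SD, n = 3 each), a difference within the spread. Igtp, an immunity-related GTPase, stood at 8.12, 8.24 and 5.99 CPM in SBES libraries, against 13.1, 10.4 and 9.58 CPM in untrained libraries. Its log2 fold change was -0.57 (SE 0.31). Irgm1, another GTPase of that family, stood at 11.2, 14.6 and 25.5 CPM in SBES libraries, against 17.0, 16.6 and 15.4 CPM in untrained libraries. SBES 1 and 3 lay on opposite sides of the untrained group.

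Among the sensors, Oas1a and Oasl2 of the oligoadenylate synthetase family lay lower in SBES libraries. These enzymes make a short adenylate messenger that activates the ribonuclease RNase L when they meet double-stranded RNA. Oasl2 stood at 2.56, 3.25 and 4.01 CPM in SBES libraries, against 10.1, 5.11 and 6.62 CPM in untrained libraries, a log2 fold change of -1.14 (SE 0.34, adjusted p = 0.749, edgeR). Oas1a stood at 1.33, 2.35 and 1.48 CPM in SBES libraries, against 3.43, 4.39 and 4.46 CPM in untrained libraries, a log2 fold change of -1.23 (SE 0.46, adjusted p = 0.914, edgeR). Neither gene's groups overlapped. Their relatives Oas1b (-0.16, SE 0.50), Oas1c (0.012, SE 0.41) and Oasl1 (-0.13, SE 0.75), which are not among the 40 genes, had overlapping groups. Reads of Oas1a can be confused with its copy Oas1g, which had 0.222 to 0.277 CPM in SBES and 0.422 to 0.594 CPM in untrained libraries.

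Zbp1, a sensor of Z-form nucleic acid that can start necroptosis, stood at 0.334, 0.277 and 0.803 CPM in SBES libraries, against 0.792, 1.17 and 1.69 CPM in untrained libraries. SBES 3 lay just above untrained 1, and the log2 fold change was -1.31 (SE 0.59, adjusted p = 0.919, edgeR). It was -1.98 without SBES 3 and -0.29 with limma on log2(FPKM + 1). It rests on 117 counts over all 9 libraries. The RNA helicase sensors were closer to 0. Ddx58, which encodes RIG-I, had a log2 fold change of -0.40 (SE 0.42), Ifih1, which encodes MDA5, one of 0.25 (SE 0.51), and Dhx58, which encodes LGP2, one of -0.079 (SE 0.37). Eif2ak2, which encodes the kinase PKR that halts translation on double-stranded RNA, had a higher mean in SBES libraries. It stood at 6.79, 6.44 and 4.82 CPM in SBES libraries, against 3.89, 4.39 and 3.55 CPM in untrained libraries, without overlap (0.60, SE 0.38, adjusted p = 0.991, edgeR). Without TMM scaling, SBES 3 at 0.96 FPKM lay below untrained 2 at 1 FPKM, so the groups overlapped.

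Ifit3 stood at 11.1, 12.1 and 13.2 CPM in SBES libraries, against 23.5, 18.9 and 17.5 CPM in untrained libraries. The groups did not overlap, and the log2 fold change was -0.71 (SE 0.30, adjusted p = 0.914, edgeR). Its copy Ifit3b, with the shared promoter shown above, stood at 7.79, 4.43 and 7.29 CPM in SBES libraries, against 8.91, 8.34 and 9.70 CPM in untrained libraries (-0.47, SE 0.31). Reads that fit both genes may have been lost from either. Ifit1 stood at -0.79 (SE 0.42) and Ifit2 at 0.30 (SE 0.47), with overlapping groups. Usp18 stood at 5.78, 3.05 and 4.75 CPM in SBES libraries, against 11.4, 7.0 and 6.32 CPM in untrained libraries, without overlap (-0.87, SE 0.41, adjusted p = 0.937, edgeR). Irf7 stood at 5.56, 4.02 and 4.75 CPM in SBES libraries, against 6.14, 8.67 and 8.25 CPM in untrained libraries (-0.69, SE 0.40, adjusted p = 0.975, edgeR). For Irf7, SBES 1 and untrained 1 were the nearest pair, and for Usp18, SBES 1 and untrained 3.

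Ifitm2 and Ifitm3 parted in this comparison. Ifitm2 stood at 72.1, 104.6 and 146 CPM in SBES libraries, against 65.1, 59.0 and 64.7 CPM in untrained libraries. After TMM scaling the untrained values lay within a narrow band below all SBES values. SBES 1 at 10 Hz was nearest and SBES 3 at 20 Hz farthest. In FPKM, which uses no TMM factor, SBES 1 at 83.7 lay below the untrained libraries at 104 to 109, so the groups overlapped. The log2 fold change was 0.77 (SE 0.34, adjusted p = 0.915, edgeR), and it was 0.49 without SBES 3. Ifitm3 stood at 154, 177 and 208 CPM in SBES libraries, against 283, 143 and 202 CPM in untrained libraries. Its groups overlapped, and the log2 fold change was -0.22 (SE 0.35). The difference between Ifitm2 and Ifitm3 was not tested. Ifitm1, of the same family and not among the 40 genes, stood at 0.56 (SE 0.40), with overlapping groups. Gm45717, a same-strand gene model that shares 36.1% of the 50-base words of Ifitm2, had 4 counts over all libraries.

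Microglia markers were split in this comparison, with 9 of 18 positive at a median of 0.032, and summed to 1456, 2914 and 4448 CPM in SBES libraries 1 to 3, against 2134 to 2390 CPM in untrained libraries. At an unadjusted p under 0.05 in edgeR, 3 of the 18 were lower and 0 higher in SBES libraries, against 1.67% and 3.7% of all genes. Without overlap 4 were lower, against 4.77% of all genes. Those 4 were Gpr34 (log2 fold change -1.42, called by DESeq2 at an adjusted p of 0.00529, 0.457 in edgeR), P2ry12 (-0.94), Aif1 (-0.89) and Cx3cr1 (-0.51). SBES 1 was lowest and SBES 3 highest in the microglia sum, an order that 11 of the 37 tested members shared and 6 showed in reverse. The share of all genes with each order was not counted, so no link to the members is drawn from it. Endothelial and pericyte markers were positive for 10 of 17 (median 0.12), with sums of 1142, 1377 and 1875 CPM in SBES and 1112 to 1480 CPM in untrained libraries. Among them Itm2a (-1.42, called by DESeq2 at an adjusted p of 0.00836, 0.457 in edgeR) and Slco1a4 (-0.84) were lower without overlap, and Slc2a1, Ly6c1 and Pdgfrb were higher without overlap. Of all genes, 4.77% were lower and 5.66% higher without overlap, and DESeq2 called 0.044% lower. None of either marker list was at 0 in any library. Pan-neuronal markers were positive for 10 of 12 (median 0.39) and oligodendrocyte markers for 8 of 10 (median 0.26). Leukocyte markers were positive for 3 of the 6 tested, with sums of 185 to 576 CPM in SBES and 305 to 810 CPM in untrained libraries. Their part in the values of the interferon response genes was not tested.

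**Figure D5:**
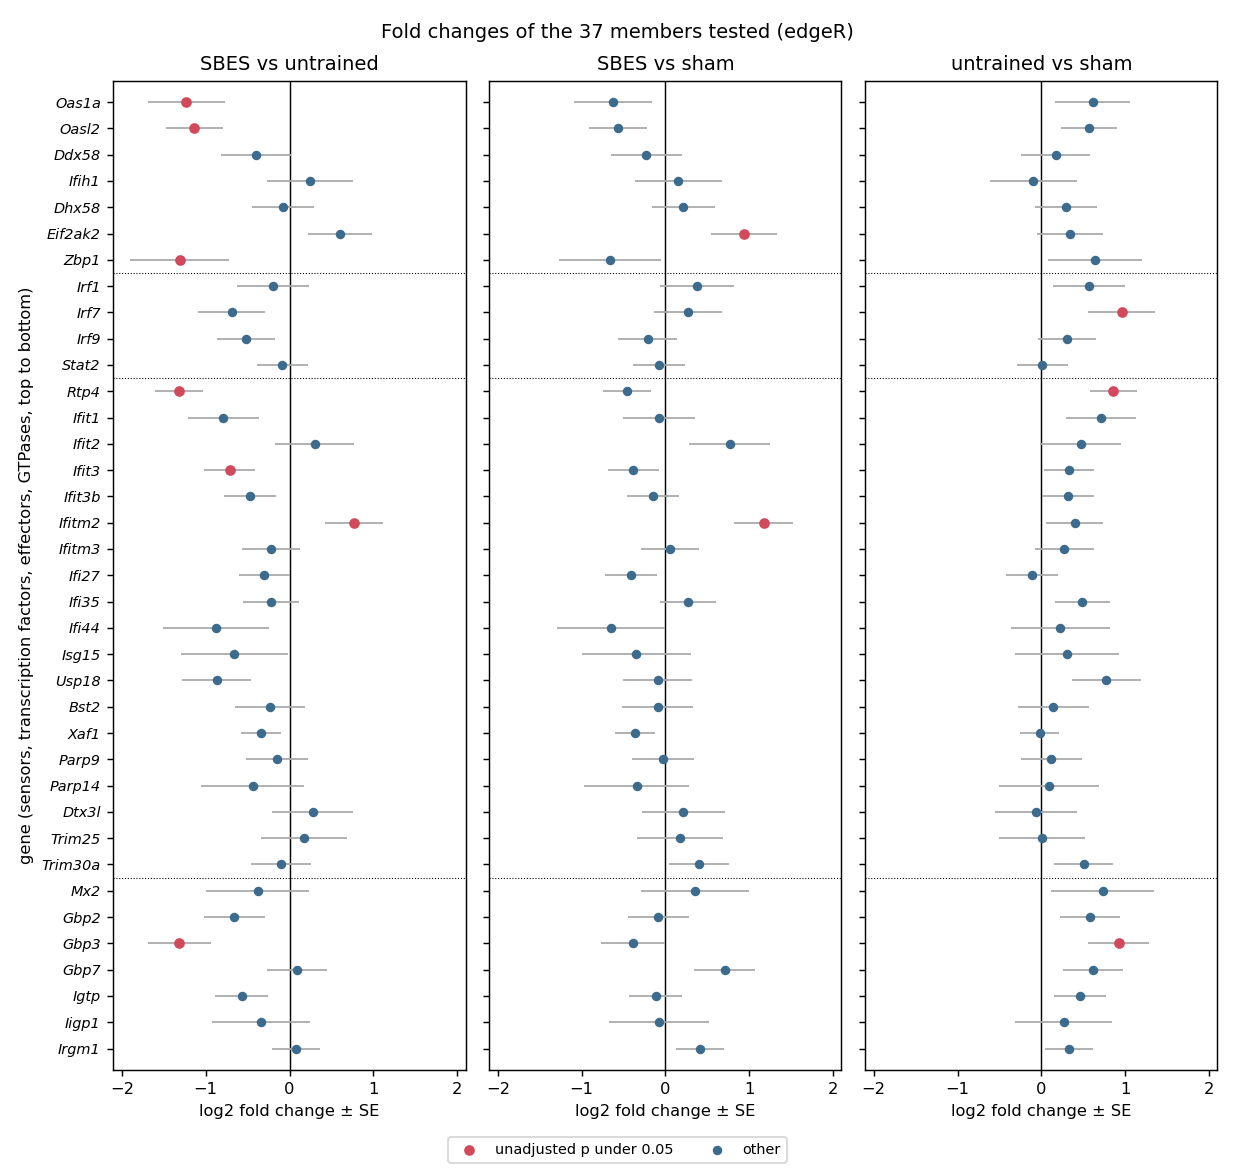
Log2 fold change ± SE (edgeR, 9 libraries in 1 fit) of the 37 interferon response genes tested, in each of 3 comparisons, with genes grouped by role from top to bottom and red for an unadjusted p under 0.05. Of 37 genes, 29 lie left of 0 for SBES against untrained, 22 for SBES against sham and 4 for untrained against sham, and none passed an adjusted p under 0.05.

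SBES libraries were last set against sham libraries, a comparison that shares its libraries with both above. The members were spread around 0. Of the 37 genes tested, 15 were positive and 22 negative, at a median of -0.078, where 49.8% of all genes tested were positive and 50.2% negative at a median of -0.0020. No member was called by edgeR, which called 55 of 15893 genes (0.346%), and none by DESeq2, which called 1.39% of all genes higher and 0.497% lower. At an unadjusted p under 0.05, 2 members were higher and 0 lower in edgeR, against 5.69% and 3.62% of all genes. Those 2 were Ifitm2 and Eif2ak2. SBES and sham libraries did not overlap for 2 members, Eif2ak2 and Gbp7, both higher, where 7.09% of all genes were higher and 6.76% lower without overlap. With the replicate number as a block, though no label pairs these libraries, edgeR called 132 genes and again no member.

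Ifitm2 stood at 72.1, 104.6 and 146 CPM in SBES libraries, against 77.1, 32.7 and 34.0 CPM in sham libraries. Sham 1 stood apart from the other sham libraries and above SBES 1, so the groups overlapped. The log2 fold change was 1.17 (SE 0.35, adjusted p = 0.228, edgeR). Without the 3 replicate 1 libraries it was 1.92, with an adjusted p of 0.000833, and without sham 1 alone it was 1.71, with an adjusted p of 0.0515. Leaving out SBES 3 alone gave 0.89. Over the 18 alternatives its adjusted p ran from 0.000833 to 0.723, and edgeR with no filter on low counts also called it. Ifitm2 (ENSMUSG00000060591) lies on chromosome 7 from 140954837 to 140955987 in mm10. Ifitm3, at 154, 177 and 208 CPM in SBES and 277, 124 and 118 CPM in sham libraries, had a log2 fold change of 0.055 (SE 0.35), again with sham 1 highest.

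Eif2ak2 stood at 6.79, 6.44 and 4.82 CPM in SBES libraries, against 4.79, 1.46 and 3.27 CPM in sham libraries. SBES 3 and sham 1 were almost level, and the log2 fold change was 0.94 (SE 0.39, adjusted p = 0.486, edgeR), or 0.59 without sham 2. Gbp7 stood at 3.78, 3.95 and 2.65 CPM in SBES libraries, against 2.18, 2.09 and 2.07 CPM in sham libraries (0.71, SE 0.36, adjusted p = 0.597, edgeR). Its sham values were nearly identical and below all SBES values. Ifit2 had a log2 fold change of 0.76 (SE 0.48), which was 0.37 without sham 2, and Irgm1 one of 0.41 (SE 0.29), which was 0.00051 without SBES 3. Oasl2 stood at -0.56 (SE 0.34), Rtp4 at -0.46 (SE 0.29; -0.16 without sham 3) and Xaf1, whose product binds an inhibitor of apoptosis, at -0.36 (SE 0.24). Rtp4 ran from 5.19 to 7.56 CPM in SBES and from 6.09 to 11.6 CPM in sham libraries. Groups overlapped for these last 5 genes.

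Endothelial and pericyte markers were positive for 14 of 17 in this comparison (median 0.39), with sums of 1142 to 1875 CPM in SBES and 626 to 1053 CPM in sham libraries. EdgeR called 1 of them, the glucose transporter gene Slc2a1, higher, where it called 0.346% of all genes in either direction. DESeq2 called 4 higher (Slc2a1, Ly6c1, Ly6a and Pecam1), against 1.39% of all genes. Of 8 motor neuron markers 5 were negative (median -0.18), and edgeR called Calca lower (-2.54, adjusted p = 0.0287). Microglia markers were positive for 11 of 18 (median 0.15), with sums of 1456 to 4448 CPM in SBES and 1057 to 2931 CPM in sham libraries. At an unadjusted p under 0.05 in edgeR, C1qa, C1qb and C1qc were higher and P2ry12 and Gpr34 lower, against 5.69% and 3.62% of all genes. Leukocyte markers summed to 2511 CPM in sham 1 and to 88.3 and 32.0 CPM in sham 2 and 3. Of the 37 tested members, 12 were highest and 17 lowest in sham 1 among the sham libraries, and the shares of all genes were not counted. The part of these cells in the values of the interferon response genes was not tested.

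The remaining members had small differences or wide errors. Parp9 and Dtx3l, whose products form a complex that modifies histones and viral proteins, lay within ±0.28 on the log2 scale in each comparison. Stat2 lay between -0.084 and 0.0079 and Trim25, a ubiquitin ligase that activates RIG-I, between 0.0070 and 0.18. Parp14 averaged 0.819, 1.08 and 1.06 CPM in SBES, untrained and sham libraries, and the interferon-inducible gene Ifi44 0.464, 0.823 and 0.719 CPM. They rest on 123 and 89 counts in all 9 libraries. Trim30a, a ubiquitin ligase that restrains inflammatory signalling, averaged 2.72 ± 0.0561 CPM in SBES, 2.91 ± 0.745 in untrained and 2.08 ± 0.632 CPM in sham libraries (SD, n = 3 each). Mx2, a dynamin-like antiviral GTPase, averaged 0.802 ± 0.284, 1.02 ± 0.806 and 0.607 ± 0.0878 CPM in SBES, untrained and sham libraries. The GTPase gene Iigp1 averaged 1.43 ± 1.18, 1.73 ± 0.929 and 1.43 ± 0.112 CPM. Of the untested members, Oas2 averaged 0.313, 0.572 and 0.801 CPM in SBES, untrained and sham libraries, and Samd9l, which restricts translation, 0.377, 0.876 and 0.372 CPM. The SBES values of Oas2 (0.222 to 0.370 CPM) lay below those of untrained (0.396 to 0.778 CPM) and sham libraries (0.435 to 1.52 CPM), on 2 to 14 counts a library. Of the genes tested, which exclude Oas2, 4.77% and 6.76% were lower without overlap in these comparisons. In FPKM, which uses no TMM factor, SBES 2 and untrained 1 were level at 0.09. Samd9l overlapped between all groups.

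The pathway upstream of these genes was described with lists of other genes. Of 14 interferon genes, 12 had no count in any library, Ifng had 5 counts in all and Ifnl2 had 1. A count of 0 allows up to 3 counts, or 0.163 to 0.334 CPM depending on the library, so interferon transcripts were at or near the limit of detection at this depth. Receptor and kinase genes were detected, and 8 of 9 were tested, with 0 called by edgeR in any comparison. DESeq2 called 1, Ifngr1, higher for SBES against sham, where it called 1.39% of all genes higher. Ifngr1, the ligand-binding chain of the interferon gamma receptor, averaged 46.0 CPM in SBES, 38.2 CPM in untrained and 23.6 CPM in sham libraries. Its log2 fold change was 0.96 (SE 0.25, adjusted p = 0.155, and 0.0278 in DESeq2) for SBES against sham and 0.69 (SE 0.25, adjusted p = 1) for untrained against sham in edgeR, with no overlap in either. Of all genes, 7.09% and 4.62% were higher without overlap in these comparisons. Ifnar1, a chain of the type I receptor, averaged 8.92 CPM in SBES and 13.3 CPM in untrained libraries (-0.58, SE 0.22, adjusted p = 0.914, edgeR).

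Of 17 upstream sensors and adaptors 12 were tested and 0 called by edgeR, while DESeq2 called Tlr7 for SBES against sham (adjusted p = 0.0344, and 0.215 in edgeR). Tlr7, an endosomal receptor for single-stranded RNA, averaged 3.74 CPM in SBES and 0.945 CPM in untrained libraries (1.96, SE 0.57) and 0.985 CPM in sham libraries (2.03, SE 0.59). Irf5 averaged 7.52 CPM in untrained and 4.18 CPM in sham libraries (0.87, SE 0.39). Of 11 negative regulators 10 were tested and 0 called by edgeR. Socs3, an inhibitor of JAK kinases induced by cytokines, averaged 5.27 CPM in SBES and 1.60 CPM in untrained libraries (1.73, SE 0.60) and 1.25 CPM in sham libraries (2.13, SE 0.62). DESeq2 called Socs3 for SBES against sham (adjusted p = 0.033, and 0.216 in edgeR). It called 1.39% of all genes higher in that comparison, Tlr7 and Socs3 among them. SBES libraries did not overlap untrained or sham libraries for Tlr7 or Socs3, where 5.66% and 7.09% of all genes were higher without overlap.

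Among 64 other interferon-stimulated genes 49 were tested and 0 called by edgeR in any comparison. DESeq2 called 1, Znfx1, for SBES against sham, where it called 1.39% of all genes higher. For untrained against sham, 34 were positive at a median of 0.18, against 49.1% of all genes, and 6 were higher and 0 lower at an unadjusted p under 0.05, against 2.18% and 2.27% of all genes. For SBES against untrained, 18 were positive at a median of -0.13, against 51.7% of all genes, with 2 higher and 1 lower at that threshold, against 3.7% and 1.67% of all genes. For SBES against sham, 26 were positive at a median of 0.078, against 49.8% of all genes, with 7 higher and 0 lower, against 5.69% and 3.62% of all genes. Znfx1, an RNA helicase-like antiviral gene, averaged 18.04 CPM in SBES, 7.39 CPM in untrained and 6.58 CPM in sham libraries. Its log2 fold change was 1.46 (SE 0.34, adjusted p = 0.112 in edgeR and 0.00626 in DESeq2) for SBES against sham and 1.29 (SE 0.33, adjusted p = 0.749, edgeR) for SBES against untrained. Lgals9, which encodes galectin-9, averaged 45.5 CPM in untrained and 23.6 CPM in sham libraries (0.95, SE 0.34), and Isg20, an exonuclease gene, 3.31 CPM in untrained and 1.55 CPM in sham libraries (1.09, SE 0.44). Ifi30 averaged 21.6 CPM in SBES, 8.26 CPM in untrained and 8.20 CPM in sham libraries. Its log2 fold change was 1.39 (SE 0.52) for SBES against untrained and 1.43 (SE 0.53) for SBES against sham. The chemokine gene Ccl5 averaged 4.08 CPM in SBES and 1.06 CPM in sham libraries (2.03, SE 0.70). The GTPase gene Ifi47 averaged 1.20 CPM in SBES and 2.81 CPM in untrained libraries (-1.21, SE 0.49). Groups overlapped for Ifi30, Ccl5 and Ifi47 in these comparisons.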

How the data were processed

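Smart-seq2 libraries of mouse spinal motoneurons were analysed from 1 deposited table. Per the labels' protocols, the authors aligned reads with Hisat2 2.0.1 and counted genes with HTSeq 0.6.1; mm10 is the build in the submitters' processing notes. Per the file headers, the authors deposited whole-number counts and FPKM; FPKM recomputed from counts, exonic length and library total matched 100% of values within 0.006. The treatment of multi-mapping reads is not given in the sources used here. Columns of 4 libraries were matched by elimination.

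Counts were tested with edgeR 4.0.16 in R 4.3.3 (filterByExpr, 15893 of 55401 genes kept; TMM factors 0.727 to 1.16; 1 quasi-likelihood fit of 9 libraries with a coefficient per group; Benjamini-Hochberg adjustment over all genes tested, threshold 0.05), after a check on simulated data. SE is the log2 fold change divided by the root of F. Alternatives used DESeq2 1.42.0, limma 3.58.1 on log2(FPKM + 1) and log2(FPKM + 0.1), other filters and scalings, a replicate block, and fits leaving libraries out. Same-numbered SBES and sham libraries deviated from their group means with correlations of 0.33, 0.19 and 0.19. The unlike-numbered SBES 3 and sham 2 gave 0.21, and untrained 1 and sham 1 gave 0.44. No label pairs libraries, so the number served as a block in an alternative fit only. Members and lists were chosen with earlier results of these data known. Fold changes are given for the 8 members of smallest unadjusted p per comparison and levels for members with a mean of at least 5 FPKM; other members named were chosen after their values were seen. Shared 50-base words were counted in GENCODE transcripts of GRCm38, and promoters came from RefSeq. Counts of PCR copies are not independent molecules, so the limits set on counts of 0 cover counting error only.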

Additional observations from a re-analysis of the deposited data

How the results depend on the processing

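All 24 fold changes of single members named by the rule kept their sign in each of 18 alternatives, and 4 of these 432 values passed the threshold: Rtp4 for SBES against untrained with no filter and with DESeq2, and Ifitm2 for SBES against sham with no filter and without the replicate 1 libraries. Each of those 4 settings gave 1 member called, against 0 as reported above. The member median for SBES against sham was small and changed sign without SBES 2 (0.031) or sham 3 (0.044); leaving out 1 library at a time it ran from -0.10 to 0.044. The corresponding ranges were 0.23 to 0.46 for untrained against sham and -0.47 to -0.27 for SBES against untrained. With limma on log2(FPKM + 0.1) those 2 medians were 0.57 and -0.55, where the median of all genes shifted to 0.18 and -0.19. Among all genes, those called for untrained against sham, SBES against untrained and SBES against sham numbered 134, 186 and 517 with no filter, 18, 30 and 300 with DESeq2, and 47, 13 and 581 without the replicate 1 libraries. For SBES against sham limma called 21 genes at a pseudocount of 1 and 30 at 0.1, and leaving out single libraries gave 0 to 86 genes (0 without sham 3, 4 without SBES 3, 6 without sham 2, 24 without untrained 2, 29 without sham 1 and 86 without SBES 1); for SBES against untrained it gave 0 to 1. For untrained against sham limma called 1 gene at 0.1. The replicate block gave 4 genes for untrained against sham and 132 for SBES against sham, and no member was called with it. By the labels, same-numbered libraries share only a number. The causes were not tested. Depth limits Mx1, Oas2, Samd9l, Ifi44, Mx2 and Zbp1, which rest on 14 to 117 counts in all.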
